A study of Mus musculus with 72 samples.

Results

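The 7 genes described here encode DNA-binding transcription factors that had been read from the same data as marking caudal and ventral subtypes of mouse dorsal raphe (DR) neurons: Nr2f2, Nr2f1, Zeb2, Rorb, Maf, Foxa1 and Foxp1. All 7 were found by symbol among the 17231 genes of a droplet (10X) table of unique molecular identifier (UMI) counts and among the 24256 genes of a table of read counts from manually sorted neurons. Their levels along the DR had been seen before they were chosen, so levels and differences are given as a description, with no test. The questions asked were how many of the 7 a neuron holds, in which combinations, and how their levels run through caudal (cDR), ventromedial (vmDR), rostral (rDR), dorsomedial (dmDR) and dorsolateral (dlDR) tissue.

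All neurons came from adult mice that carried Pet1::Flpe+/-, in which Flpe recombinase is driven by regulatory sequence of Pet1 (Fev), the serotonergic identity factor. The manually sorted neurons also carried the dual-recombinase reporter RC::FrePe+/- and a Cre driver, so a sorted cell has a history of both recombinases, which is not the same as expressing the driver gene as an adult. With Sert::cre+/- (Slc6a4-cre, a transgene) there were 6 cells from cDR (postnatal day, P, 63), 8 from vmDR (4 at P63, 4 at P90), 9 from dmDR (6 at P63, 3 at P90) and 10 from dlDR (5 at P63, 5 at P90). With P2ry1::cre+/- there were 10 cDR cells (P62 to P74), and with Npy2r::cre+/- 10 cDR cells (4 at P77, 6 at P87) and 9 rDR cells (3 at P77, 6 at P87). With Crh::cre+/- (a transgene) there were 8 rDR cells (2 at P83, 6 at P119). The 10X neurons were taken from the whole DR in 2 runs, the first with Pet1::Flpe+/- and hM3Dq+/+ (mean age P65.5), the second with En1::cre+/-, Pet1::Flpe+/- and the RC::FrePe+/- reporter (mean age P59). The labels tie no cell to an animal, so each manual group and the pooled 10X table count as 1 sample, cells are not replicates, and no p-value is given.

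The 10X table held 2350 cells with 12320 to 134079 UMIs each (median 59646), in 2 barcode sets of 869 and 1481 cells that shared 0 barcodes. The 70 manual libraries held 756872 to 7664103 reads on genes (median 4113038), so 1 read was worth 0.13 to 1.32 CPM (counts of a gene for every 1000000 of the cell's total). Fev was detected in all 2350 and all 70 cells, and the serotonin synthesis enzyme Tph2 in 2339 and 70. The driver genes were read where their labels place them in most but not all cells: P2ry1 in 8 of 10 P2ry1-cre cells, Npy2r in 7 of 10 and 6 of 9 Npy2r-cre cells from cDR and rDR, Crh in 5 of 8 Crh-cre cells, and Slc6a4 in all 70. Intervals below are exact 95% intervals and cover counting error only, and the manual reads carry no molecular identifiers.

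Nr2f1 and Nr2f2 encode the COUP-TF nuclear receptors, orphan receptors known for setting positional and subtype identity in developing brain. Rorb is another orphan nuclear receptor, known from sensory cortex and retina. Zeb2 and its paralogue Zeb1 encode zinc-finger, homeodomain-bearing repressors that bind E-boxes. Maf encodes a large basic leucine zipper factor. Foxa1 and Foxp1 encode forkhead proteins, the first known as a factor that opens chromatin in ventral midbrain and endoderm, the second as a repressor in neurons and lymphocytes. In serotonergic neurons such factors act beside the shared identity factors Fev, Gata2, Gata3, Lmx1b and En1, and combinations of them are commonly used to tell neuron subtypes apart.

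All 7 genes lie on the minus strand in GRCm38 (GENCODE M21): Nr2f2 at chr7:70351944-70366735, Nr2f1 at chr13:78188973-78199757, Zeb2 at chr2:44983632-45117395, Rorb at chr19:18930605-19111196, Maf at chr8:115682942-115707794, Foxa1 at chr12:57540628-57546916 and Foxp1 at chr6:98925338-99522721. Since the manual libraries do not keep strand, reads of Zeb2 cannot be told from its antisense gene Zeb2os over 653 exonic bases, of Nr2f2 from B130024G19Rik over 643, of Maf from Gm15655 over 440 and of Nr2f1 from A830082K12Rik over 123. Foxp1 shares 300 exonic bases with Gm20696 on its own strand. The stretches of 250 bases directly before the RefSeq start (GRCm38.p6) of 4 genes are shown because these genes enter combinations described below. These are Nr2f2 with Zeb2, Nr2f2 with Rorb, and Foxa1 with Maf and Foxp1. Each is written 5′ to 3′ on the minus strand. Capitals mark matches, on either strand, to AGGTCA (an element bound by COUP-TF and ROR receptors), CACCTG (the ZEB E-box), TGTTTAC (forkhead) or TGCTGA (large MAF).
Nr2f2, chr7:70366747-70366996: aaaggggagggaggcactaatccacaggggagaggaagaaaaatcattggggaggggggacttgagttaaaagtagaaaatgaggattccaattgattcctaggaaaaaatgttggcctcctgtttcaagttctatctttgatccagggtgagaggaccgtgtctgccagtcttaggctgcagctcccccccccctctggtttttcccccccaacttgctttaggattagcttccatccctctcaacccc
Zeb2, chr2:45117443-45117692: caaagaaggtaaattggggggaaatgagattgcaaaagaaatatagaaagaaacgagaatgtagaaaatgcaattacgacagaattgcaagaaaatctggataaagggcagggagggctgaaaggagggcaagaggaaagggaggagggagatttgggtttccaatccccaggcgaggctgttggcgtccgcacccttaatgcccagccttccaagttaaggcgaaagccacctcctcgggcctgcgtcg
Rorb, chr19:19111197-19111446: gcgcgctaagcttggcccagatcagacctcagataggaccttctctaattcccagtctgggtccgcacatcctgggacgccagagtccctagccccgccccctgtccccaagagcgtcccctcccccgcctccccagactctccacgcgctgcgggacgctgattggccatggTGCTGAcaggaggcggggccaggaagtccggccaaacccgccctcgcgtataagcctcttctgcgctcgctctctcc
Foxa1, chr12:57546112-57546361: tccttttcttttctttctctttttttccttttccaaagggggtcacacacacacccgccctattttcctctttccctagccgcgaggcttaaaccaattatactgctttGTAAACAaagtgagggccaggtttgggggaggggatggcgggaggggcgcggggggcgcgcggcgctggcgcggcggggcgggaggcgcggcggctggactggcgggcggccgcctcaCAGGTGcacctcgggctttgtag
The Nr2f2 and Zeb2 stretches held none of the 4 motifs. The Rorb stretch held TGCTGA at bases 174 to 179, and the Foxa1 stretch held TGTTTAC at bases 110 to 116 and CACCTG at bases 228 to 233, both on the reverse strand, with no overlap between matches. Among all 32851 RefSeq promoter stretches of this length 14.0% held AGGTCA, 17.2% CACCTG, 3.17% TGTTTAC and 16.1% TGCTGA. GC content was 50.0%, 49.6%, 66.0% and 62.0% in the order shown. The Nr2f2 stretch lies wholly in an exon of the opposite-strand B130024G19Rik, and the Foxa1 stretch lies wholly within the GENCODE gene, 10 of its bases in an exon. Of the 7 genes 6 had a RefSeq entry in the promoter table.

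Nr2f2 was read mostly in caudal cells of the manual set. In the 6 Slc6a4-cre cDR cells it was read at 92.6, 91.3, 91.1, 109.5, 0.90 and 0.23 CPM, so 4 cells were high and 2 were close to 0. The 10 P2ry1-cre cDR cells all held it, at 31.5 to 120.5 CPM (median 92.0, mean 88.1 ± 24.1 SD). In Npy2r-cre cDR it was mixed: 4 of 10 cells read 65.8, 51.5, 32.7 and 78.1 CPM and the others at most 4.37 CPM. Outside cDR it was read in 4 cells: 1 vmDR cell (4.14 CPM), 2 Npy2r-cre rDR cells (160.5 and 4.01 CPM) and 1 Crh-cre rDR cell (173.4 CPM). It was read in 0 of 9 dmDR and 0 of 10 dlDR cells, where 3 reads over the group would be 0.082 and 0.083 CPM. By mean, P2ry1-cre cDR stood first, then Slc6a4-cre cDR (64.3 ± 49.8 CPM) and Npy2r-cre cDR (23.4 ± 31.0 CPM), but the ranges of neighbours in this order overlapped.

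Nr2f1 followed Nr2f2 at fewer cells. It was read in Slc6a4-cre cDR at 8.78, 9.64, 22.9 and 62.1 CPM and at 0 in the other 2 cells. In P2ry1-cre cDR 2 of 10 cells held it (52.6 and 5.63 CPM), and in Npy2r-cre cDR 3 of 10 (16.3, 3.89 and 26.5 CPM). In the 44 cells of the other groups it was read once, at 0.32 CPM in a dlDR cell. The cell with the most Nr2f1 in Slc6a4-cre cDR (62.1 CPM) was the cell with 0.23 CPM of Nr2f2, so the receptors did not always run together. At 5 CPM or more, 6 of the 8 Nr2f1 cells also held Nr2f2, against 14 of 62 cells without Nr2f1.

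Zeb2 was read mostly in P2ry1-cre cells. Its values there were 117.0, 60.5, 51.5, 9.04, 81.0, 115.5, 25.2, 74.2, 57.0 and 192.0 CPM (median 67.3, mean 78.3 ± 52.7 SD), and no other of the 60 cells passed 0.73 CPM. For Zeb2 the group with the highest mean thus did not overlap the next group. The share of all genes for which this holds was not counted, so nothing is read from the gap. The paralogue Zeb1 was read in 3 of the 10 P2ry1-cre cells (68.3, 40.4 and 38.8 CPM) and in 59 of the 60 others. Met, the hepatocyte growth factor receptor, was read in 9 of the 10 P2ry1-cre cells (37.4 to 160.7 CPM) and in 2 of the other 60, at 1.07 and 3.45 CPM. Zeb2 is also abundant in microglia, and the microglial list of 7 genes summed to at most 0.19 CPM in any P2ry1-cre cell, with 6 of the 7 genes at 0.

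Rorb was higher in Slc6a4-cre cDR cells than in P2ry1-cre cDR cells. It was read in all 6 Slc6a4-cre cDR cells, at 12.2, 53.4, 41.8, 91.6, 3.59 and 72.2 CPM, and at no more than 0.57 CPM in any P2ry1-cre cell. Npy2r-cre cDR cells held 0 to 3.95 CPM and vmDR cells 0 to 2.87 CPM. Single cells stood out elsewhere, at 14.7 CPM in dmDR, 12.2 CPM in dlDR and 12.1 CPM in Npy2r-cre rDR, with all other cells of those groups at 2.48 CPM or less. The 3.59 CPM cell in cDR, replicate 5, also had 0.90 CPM of Nr2f2 and carried the highest oligodendrocyte and astrocyte sums of the 70 cells (268.3 and 272.5 CPM). Glial markers were not high in that cell alone: the astrocyte list of 5 genes summed to 13.4 to 272.5 CPM in Slc6a4-cre cDR (median 51.3; Aqp4 at 0), against medians of 3.13 CPM in P2ry1-cre (range 0 to 115.7) and 0.36 CPM in Npy2r-cre cDR cells (range 0 to 42.2). The oligodendrocyte list of 6 genes had medians of 43.4 (range 0.28 to 268.3), 0 (0 to 85.8) and 33.9 CPM (1.36 to 140.7) in the same order, with Olig1 at 0 in all 3 groups. In the droplet cells described below, Slc1a2 made up 99.7% of the astrocyte list in cluster 8 (59.9 CPM, 78 of 86 cells). Gfap and Gja1 were at 0 there. In cluster 7 Slc1a2 made up 98.1% (46.7 CPM). The paper mapped the Slc6a4-cre cDR cells to these clusters. In those manual cells 4 of the 5 astrocyte genes had reads, and their shares were not split. Whether the sums are glial RNA, and the part of such RNA in the Rorb and Nr2f2 values, was not tested.

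Maf was read in cDR cells of the P2ry1-cre and Npy2r-cre lines and in some vmDR, dmDR and rDR cells. P2ry1-cre cDR cells held it throughout, at 4.83 to 112.3 CPM (median 31.2), but only 1 of 6 Slc6a4-cre cDR cells did, at 0.88 CPM. The highest values were in Crh-cre rDR, at 234.3 and 194.9 CPM, with 26.4 and 0.71 CPM in 2 further cells and 0 in 4. In dmDR 4 of 9 cells held it (111.6, 57.7, 2.23 and 0.59 CPM), and in dlDR 0 of 10. Npy2r-cre cells held it in 7 of 10 from cDR (up to 76.7 CPM) and 5 of 9 from rDR (up to 29.3 CPM), and vmDR cells in 4 of 8 (up to 34.1 CPM). Cells of the same group, and cDR cells of different Cre lines, differed widely.

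Foxa1 had its highest group mean in vmDR cells (17.3 ± 19.8 CPM SD, n = 8) and the next in Crh-cre rDR cells (14.6 ± 26.9 CPM SD, n = 8), with overlapping ranges. The 4 vmDR cells at P90 held 40.1, 13.1, 29.6 and 49.7 CPM, and the 4 at P63 held 0.39, 5.03, 0 and 0.43 CPM, so the ages did not overlap. Age and anything else that differed between the cells taken at those ages cannot be told apart. It was read in 0 of 6 Slc6a4-cre cDR and 0 of 10 P2ry1-cre cDR cells, where 3 reads over the group would be 0.14 and 0.054 CPM. In Npy2r-cre cDR 2 of 10 cells held it, at 9.14 and 0.50 CPM. Rostral cells held it in part: 16.2, 2.64, 1.34 and 20.5 CPM in 4 of 9 Npy2r-cre and 45.9, 68.1 and 2.57 CPM in 3 of 8 Crh-cre cells. Single dorsal cells reached 26.6 CPM (dmDR) and 2.15 CPM (dlDR).

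Foxp1 was broad. It was read in 59 of 70 cells and in every group, with the highest median in Npy2r-cre cDR (52.5 CPM, range 3.16 to 191.2), followed by vmDR (22.5 CPM, 8 of 8 cells) and Slc6a4-cre cDR (18.1 CPM, 4 of 6 cells). The lowest medians were in dlDR (4.32 CPM), P2ry1-cre cDR (4.41 CPM) and Crh-cre rDR (4.63 CPM). Neighbouring groups in the order of means overlapped.

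**Figure D1:**
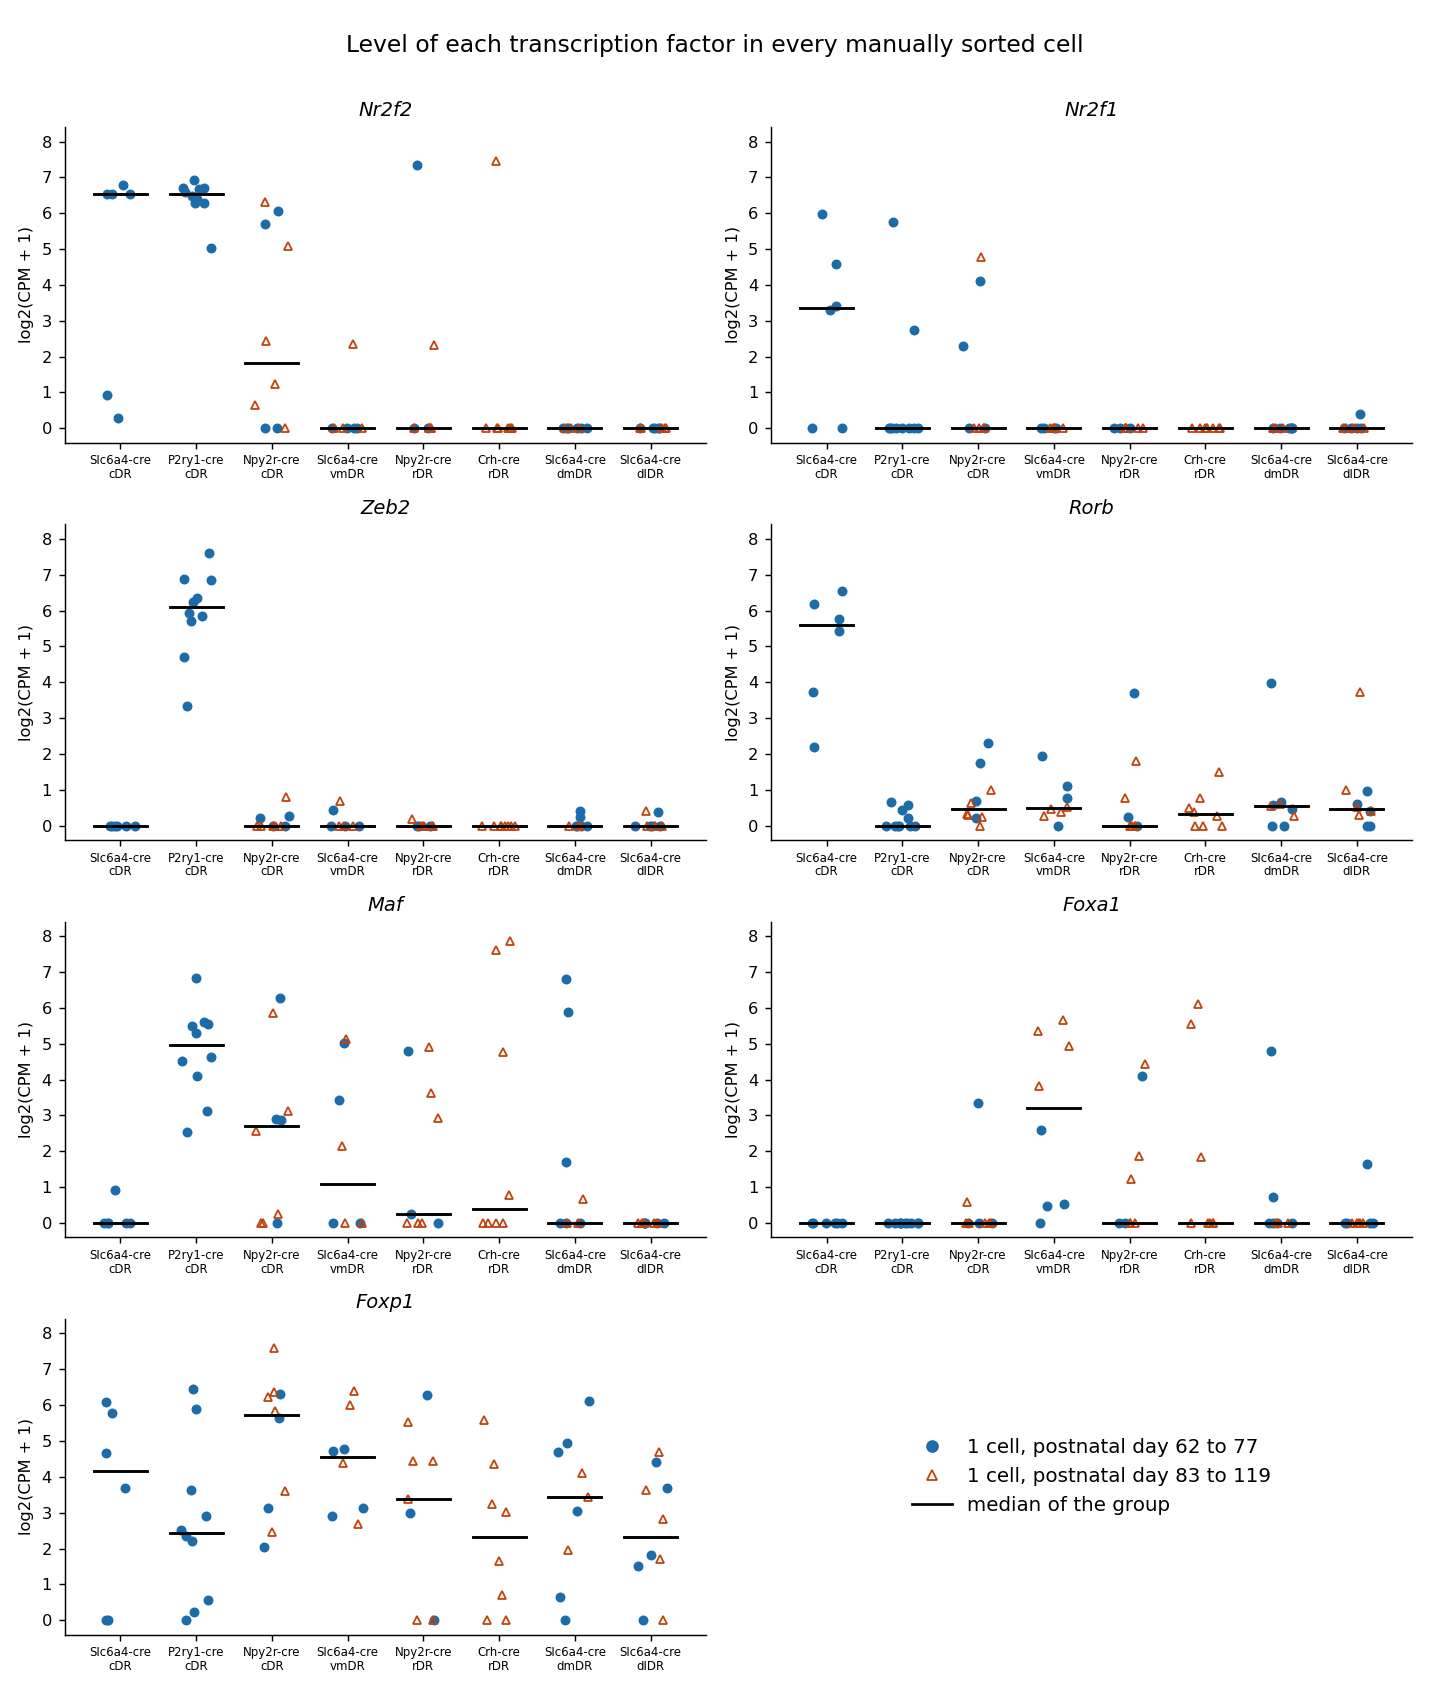
Level of each transcription factor in every manually sorted cell as log2(CPM + 1), 1 panel per gene, with groups along the x axis, 1 symbol per cell by age class and a bar at the group median. Zeb2 sits at 9.04 CPM or more in all 10 P2ry1-cre cells and at 0.73 CPM or less elsewhere, Rorb is high in the Slc6a4-cre cDR cells, and the vmDR cells with 13.1 CPM or more of Foxa1 are all from the older class.

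The planned comparisons put these values side by side on the log2 scale of mean CPM + 1. Against the 19 dorsal Slc6a4-cre cells (dmDR and dlDR), the 14 caudal and ventral ones (cDR and vmDR) had higher means of Nr2f2 (27.8 ± 45.0 SD over cells against 0 CPM), Nr2f1 (7.39 ± 17.1 against 0.017 CPM, log2 ratio 3.04), Rorb (log2 ratio 2.94), Foxa1 (2.09) and Foxp1 (1.10). Nr2f2 was at a log2 ratio of 4.85. By pooled reads, with 3 reads over the dorsal cells as the floor, it was at least 668-fold higher, and 518-fold without cDR replicate 4. The first arm mixes regions that differed. In cDR and vmDR the means were 64.3 and 0.52 CPM for Nr2f2, 17.2 and 0 for Nr2f1, and 45.8 and 0.76 for Rorb. For Foxa1 they were 0 and 17.3 CPM, and for Foxp1 26.3 and 29.7 CPM. Maf was at 5.70 against 9.06 CPM (-0.59) and Zeb2 was near 0 in both arms. Of the 6 genes with a mean of at least 5 CPM in an arm, 5 were at least 2-fold higher and 0 lower, where 10.7% of all 10623 genes passing that filter were higher and 6.01% lower. With no such filter the counts were also 5 and 0, against 10.2% and 6.53% of genes, and with a mean of at least 1 CPM they were again 5 and 0, against 13.0% and 8.36%. The genes had been chosen on this contrast, so nothing is read from these shares. Without the Slc6a4-cre cDR cell replicate 6 the Nr2f1 ratio was 2.04, without dmDR replicate 6 the Foxa1 ratio was 3.23, and without dmDR replicate 1 Maf turned to 0.62, while without vmDR replicate 6 it was at -1.16. Foxp1 fell short of 2-fold (0.87) without vmDR replicate 7. By age, Foxa1 was at -1.21 among P63 cells and at 5.09 among P90 cells, and among P90 cells Nr2f2 was at 1.03, Nr2f1 at 0, Rorb at -1.14 and Maf at 3.27, where the first arm holds vmDR cells only.

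Within the Npy2r-cre line, 10 cDR against 9 rDR cells, the means were closer. Foxp1 had a log2 ratio of 1.43 (55.6 against 20.0 CPM). Nr2f1 stood at 4.67 against 0 CPM, at least 57.0-fold higher by pooled reads with 3 reads over the rDR cells as the floor and at least 32.8-fold without cDR replicate 7, but it did not reach a mean of 5 CPM and neither did Foxa1 (-1.49). Nr2f2 was at 0.34, with a single rDR cell, replicate 3, carrying nearly all of that arm, at 4.02 without it and at -0.071 without cDR replicate 7. Maf was at 0.87 (0.13 without cDR replicate 4) and Rorb at -0.49 (0.44 without rDR replicate 3). Foxp1 was at 0.99 without cDR replicate 7 and at 2.02 without rDR replicate 3, and Foxa1 at -2.39 without cDR replicate 4 and at -0.84 without rDR replicate 8. Of 3 genes passing the filter 1 was at least 2-fold higher, against 9.61% of 10648 genes higher and 12.4% lower. With no filter, and with a mean of at least 1 CPM, 2 genes were higher and 1 lower, against 10.3% and 12.4% and against 12.4% and 14.8% of genes.

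Among caudal cells, the 10 P2ry1-cre neurons held more Zeb2 (log2 ratio 6.21), Maf (1.76) and Nr2f2 (1.16) and less Rorb (-4.02) and Foxp1 (-1.29) than the 16 Slc6a4-cre and Npy2r-cre cells. Those 16 cells mix lines that differed. In P2ry1-cre, Slc6a4-cre and Npy2r-cre cells the means were 88.1, 64.3 and 23.4 CPM for Nr2f2, and 0.16, 45.8 and 0.93 CPM for Rorb. For Maf they were 36.3, 0.15 and 15.9 CPM, for Foxp1 17.7, 26.3 and 55.6 CPM, and for Zeb2 78.3, 0 and 0.11 CPM. Nr2f1 was at -0.61 and turned to -2.68 without the P2ry1-cre cell replicate 3, which held 52.6 CPM. Foxa1, with 0 reads in P2ry1-cre cells, was at least 14.6-fold lower by reads pooled over cells, a value that rests on Npy2r-cre cDR replicate 4 (log2 ratio -0.68, and -0.05 without it). Maf was at 2.51 without that same cell, and Foxp1 at -2.06 without P2ry1-cre replicate 10 and at -0.94, under 2-fold, without Npy2r-cre cDR replicate 7. Of 6 genes passing the filter 3 were at least 2-fold higher and 2 lower, against 11.9% and 16.6% of 10705 genes. With no filter, and with a mean of at least 1 CPM, the counts were the same, against 10.2% and 17.7% and against 12.6% and 21.8% of genes. These cDR cells also form arms of the other comparisons, so the 3 sets of ratios are not independent.

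**Figure D2:**
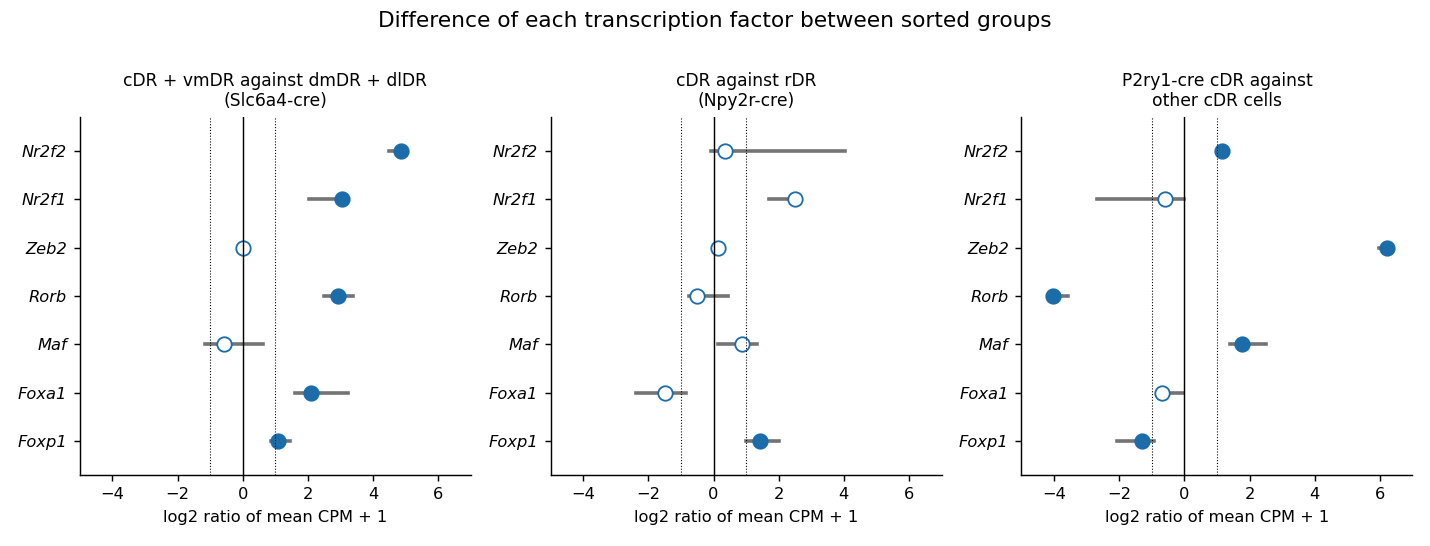
Difference of each transcription factor between sorted groups as the log2 ratio of mean CPM + 1 in 3 comparisons, filled where the ratio is at least 2-fold and the gene has a mean of at least 5 CPM in an arm, with grey lines from the lowest to the highest ratio when each cell is left out in turn and dotted lines at 2-fold. The long grey line of Nr2f2 in the Npy2r-cre panel runs to 4.02, and that of Zeb2 in the P2ry1-cre panel does not go below 5.96.

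In the 10X table detection ran from 6.60% of cells for Zeb2 (5.63 to 7.68) and 8.30% for Nr2f1 (7.21 to 9.49), over 17.1% for Foxa1 (15.6 to 18.7), 26.4% for Nr2f2 (24.6 to 28.2), 28.9% for Rorb (27.1 to 30.8) and 32.6% for Maf (30.7 to 34.5), to 77.6% for Foxp1 (75.9 to 79.3). The counts behind these shares differed in kind. Nr2f2 and Zeb2 cells mostly held several UMIs, with 22.7% and 23.2% of positive cells at exactly 1 UMI, whereas 66.2% of Nr2f1, 51.5% of Rorb and 51.5% of Foxa1 positive cells held exactly 1. After each cell was thinned to 20000 UMIs, which left out 53 cells, the shares of Zeb2, Nr2f2 and Nr2f1 were 5.31%, 18.7% and 4.14%. Shares in the 2 barcode sets were 24.1% and 27.8% for Nr2f2, 6.44% and 6.68% for Zeb2, 13.7% and 19.1% for Foxa1, and 19.8% and 34.3% for Rorb. The barcode sets could not be tied to the runs, so mouse line, run and depth behind these shares cannot be told apart.

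The cells were clustered as the methods of the study state and the 14 clusters numbered by markers that exclude the 7 genes. Each of the 14 clusters had its highest score for its own markers, but the numbers had been given by these same scores, so this is no separate check. Clusters carry no position, the 7 genes were all among the 2000 variable genes used, and a cluster against the rest is therefore no test. With the 7 genes removed from the clustering 91.5% of cells kept their number, but only 72 of the 239 cells of cluster 10 did.

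Each gene had its own set of clusters. Nr2f2 was highest in cluster 12 (134.8 CPM of summed UMIs, in 97.2% of 109 cells), then in cluster 8 (105.8 CPM, 94.2% of 86 cells), cluster 9 (52.3 CPM, 54.7%) and cluster 7 (29.2 CPM, 73.0%), and the intervals of neighbours in that order did not overlap. Clusters 14, 13 and 10 held 25.8, 24.5 and 22.1 CPM. In clusters 1 to 6 and 11 it was at most 3.58 CPM, and the lowest share of cells was 2.41% in cluster 5. Nr2f1 was highest in clusters 12 (16.3 CPM, 47.7% of cells), 13 (10.7 CPM, 20.1%), 8 (9.37 CPM, 39.5%), 14 and 7, where neighbours overlapped, and it was at 0.93 CPM in cluster 9. The receptors thus shared clusters 12 and 8, and parted in cluster 9, which stood next after them for Nr2f2.

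Cluster 12 held 93.2% of all Zeb2 UMIs. There 108 of 109 cells held the gene, with a median of 10 UMIs per cell and 230.0 CPM. Outside it 47 of 2241 cells held Zeb2, 35 of them with 1 UMI and 6 with 3 or more, and cluster 13, the shallowest with a median of 28628 UMIs, stood next at 4.53 CPM. Zeb1 ran the other way: in cluster 12 it was at 10.1 CPM (7.47 to 13.3) and in 33.9% of cells, while the remaining 2241 cells stood at 54.9 CPM with 91.5% of them positive (log2 ratio -2.45, interval -2.88 to -2.05). It was lower in cluster 12 in barcode set 1 (5.93 against 51.2 CPM) and in set 2 (12.5 against 56.9 CPM). The microglial list had 0 UMIs of 7 genes in cluster 12. The vessel and pericyte list summed to 25.2 CPM there, 70.4% of it in 1 cell, and to 7.55 CPM without that cell, and its part in Zeb2 was not tested.

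Rorb was highest in cluster 8 (190.9 CPM, 95.3% of cells), where C1ql1 and Wnt4 lead beside it, and next in cluster 10 (40.0 CPM, 58.6%). It stayed present at 6.86 to 12.1 CPM in clusters 1 to 4, 9 and 14, in 16.0% to 36.7% of cells, also in clusters 2 and 4, where Nr2f2 was at 1.00 and 0.82 CPM. Maf was highest in cluster 9 (190.0 CPM, 98.7%), followed by clusters 11 (55.7 CPM) and 12 (53.5 CPM), which did not differ beyond their intervals, and by cluster 5 (33.4 CPM). Cluster 8 held only 5 Maf UMIs (0.92 CPM). Foxa1 was highest in cluster 11 (31.3 CPM, 82.3%), and then in clusters 13, 7 and 9 at 18.1, 13.4 and 9.09 CPM. In clusters 8 and 12 it was not detected, 0 of 86 and 0 of 109 cells, which allows shares of cells with a UMI, not of cells expressing it, of up to 3.49% and 2.75%. Foxp1 was present in 62.0% of cells or more in every cluster, and was highest in clusters 14 (156.6 CPM) and 7 (126.4 CPM), with 21.7 to 48.3 CPM in all others.

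Ratios of the highest cluster to all other cells were 8.48 for Zeb2, 4.10 for Rorb, 3.83 for Maf, 3.39 for Nr2f1, 3.12 for Nr2f2, 3.03 for Foxa1 and 2.12 for Foxp1 on the log2 scale. All 7 passed a log2 ratio of 2, against 5.46% of the 12901 genes with at least 100 UMIs, whose median ratio was 0.55. Foxp1 was at 1.86 in barcode set 1 alone, and Zeb2 at 5.97 with components 6 and 7 kept. Each gene had been chosen for such a pattern and had entered the clustering, so the count is a description. The other genes of the same families were flatter: of 19 paralogues 14 were in the table, 11 had enough UMIs, and 0 passed a log2 ratio of 2 (median 0.69). The lowest share of cells with a UMI in any cluster, a guide to stray RNA, was 0.45% for Nr2f1 (cluster 2), 0.77% for Zeb2 (cluster 11), 1.67% for Maf (cluster 4) and 5.56% for Rorb (cluster 13).

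**Figure D3:**
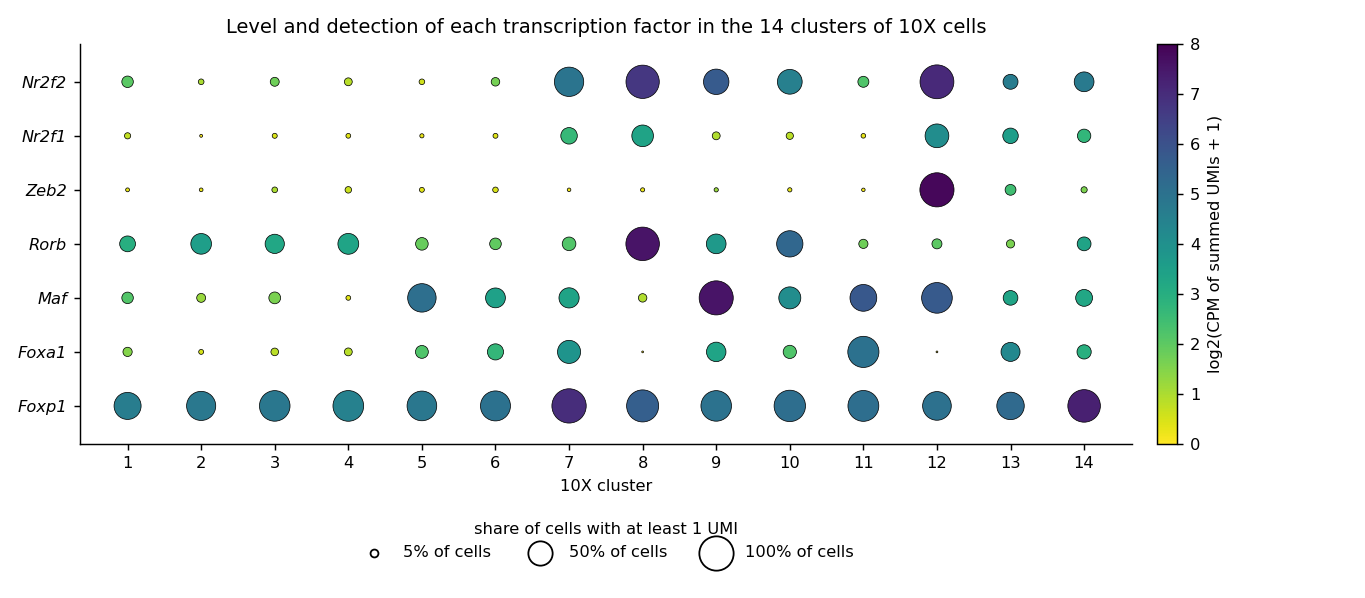
Level and detection of each transcription factor in the 14 clusters of 10X cells, with colour for log2(CPM of summed UMIs + 1) and circle area for the share of cells with at least 1 UMI. Nr2f2 is dark in clusters 12 and 8, Zeb2 in cluster 12, Rorb in cluster 8, Maf in cluster 9, and Foxa1 is missing from clusters 8 and 12.

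Most neurons held more than 1 of the 7 genes. None was detected in 209 cells (8.89%), 1 in 739 (31.4%), 2 in 679 (28.9%), 3 in 420 (17.9%), 4 in 231 (9.83%), 5 in 71 (3.02%) and 6 in 1 cell. Thus 1402 cells (59.7%, 57.6 to 61.7) held at least 2, and 798 (34.0%) held at least 2 without counting Foxp1. The share depended on the count required: it was 32.8% when a gene needed 2 UMIs, 21.1% with 3 UMIs, and 32.8% after thinning. It was 50.2% in barcode set 1 and 65.2% in set 2. Median depth was 50397 UMIs in cells with 0 genes, 57785 with 1, 61416 with 2, 63767 with 3, 62054 with 4 and 57992 with 5. The part of depth in the number was not tested.

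The number differed by cluster. Cluster 12 cells held 4.02 of the 7 genes on average and 3.18 after thinning, at a median depth of 45568 UMIs, and 74.3% of its cells held at least 4. Clusters 8, 9 and 7 followed with 3.23, 3.04 and 2.92 genes, and clusters 10 and 11 with 2.55 and 2.43. After thinning clusters 8, 9 and 7 still came next, at 2.39, 2.12 and 1.74, but cluster 14 (1.54, and 1.98 unthinned) then stood above clusters 10 (1.45) and 11 (1.43). Clusters 1, 2, 3 and 4 were lowest, at 1.16, 1.20, 1.38 and 1.33, and at 0.66, 0.63, 0.57 and 0.53 after thinning.

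**Figure D4:**
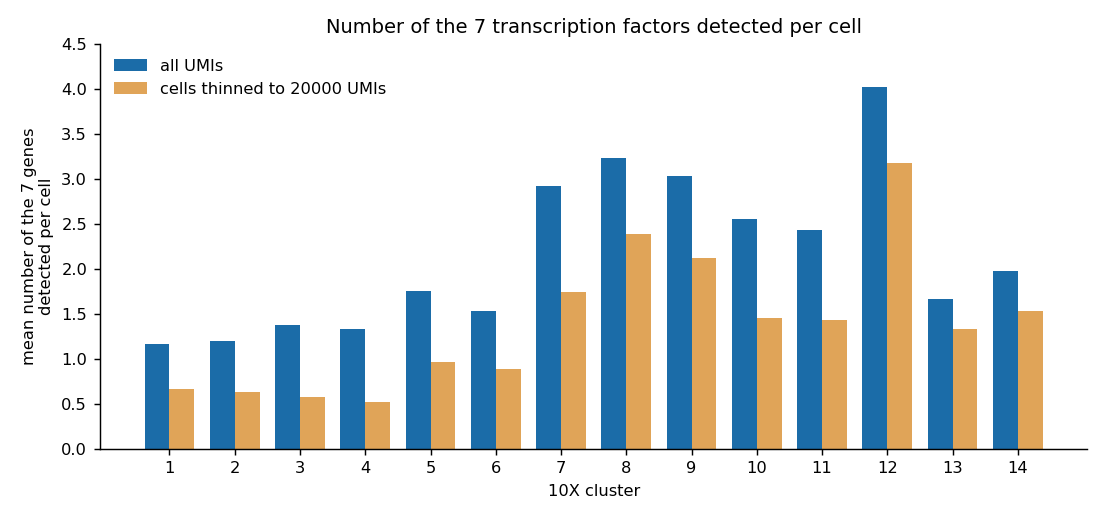
Mean number of the 7 transcription factors detected per cell in each 10X cluster, with all UMIs (blue) and after thinning each cell to 20000 UMIs (orange). Cluster 12 is highest in both, at 4.02 and 3.18 genes per cell.

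Of the 80 combinations seen, Foxp1 alone was found in 558 cells, Rorb with Foxp1 in 224 (101 of them in cluster 2), and Maf with Foxp1 in 208 (64 in cluster 5). The combination of Nr2f2, Rorb and Foxp1 was found in 100 cells, 39 each in clusters 8 and 10, and Maf, Foxa1 and Foxp1 in 93 cells, 46 in cluster 11. In cluster 12 the leading combinations were Nr2f2, Nr2f1, Zeb2, Maf and Foxp1 (30 cells, 27.5%) and the same without Nr2f1 (26 cells). In cluster 8 they were Nr2f2, Rorb and Foxp1 without (39 cells, 45.3%) and with Nr2f1 (27 cells). In cluster 9 the leading combinations were Maf with Foxp1 (28 of 159 cells, 17.6%) and the same with Nr2f2 (20 cells).

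In pairs, Nr2f2 was found in 76.8% of Zeb2 cells and 75.4% of Nr2f1 cells, against 26.4% of all cells, and in 89.1% and 83.3% when each gene needed 2 UMIs. The reverse shares were lower: 19.2% of Nr2f2 cells held Zeb2 and 23.7% held Nr2f1. Their order turned with 2 UMIs, at 106 and 55 of 479 Nr2f2 cells, and after thinning to 20000 UMIs, at 22.6% and 15.2%. Rorb was found in 45.0% of Nr2f2 cells and Nr2f2 in 41.0% of Rorb cells. Zeb2 and Rorb seldom met, with Rorb in 16.8% of Zeb2 cells at 1 UMI and 1.68% at 2 UMIs, and Foxa1 was found in 5.16% and 0.84%. Maf was found in 50.7% of Foxa1 cells and Foxa1 in 26.6% of Maf cells, while Foxa1 and Rorb overlapped in 14.4% and 8.53% of their cells. With 2 UMIs the last 2 shares were 3.08% and 1.82%, and after thinning Maf was found in 30.9% of Foxa1 cells and Foxa1 in 13.2% of Maf cells.

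**Figure D5:**
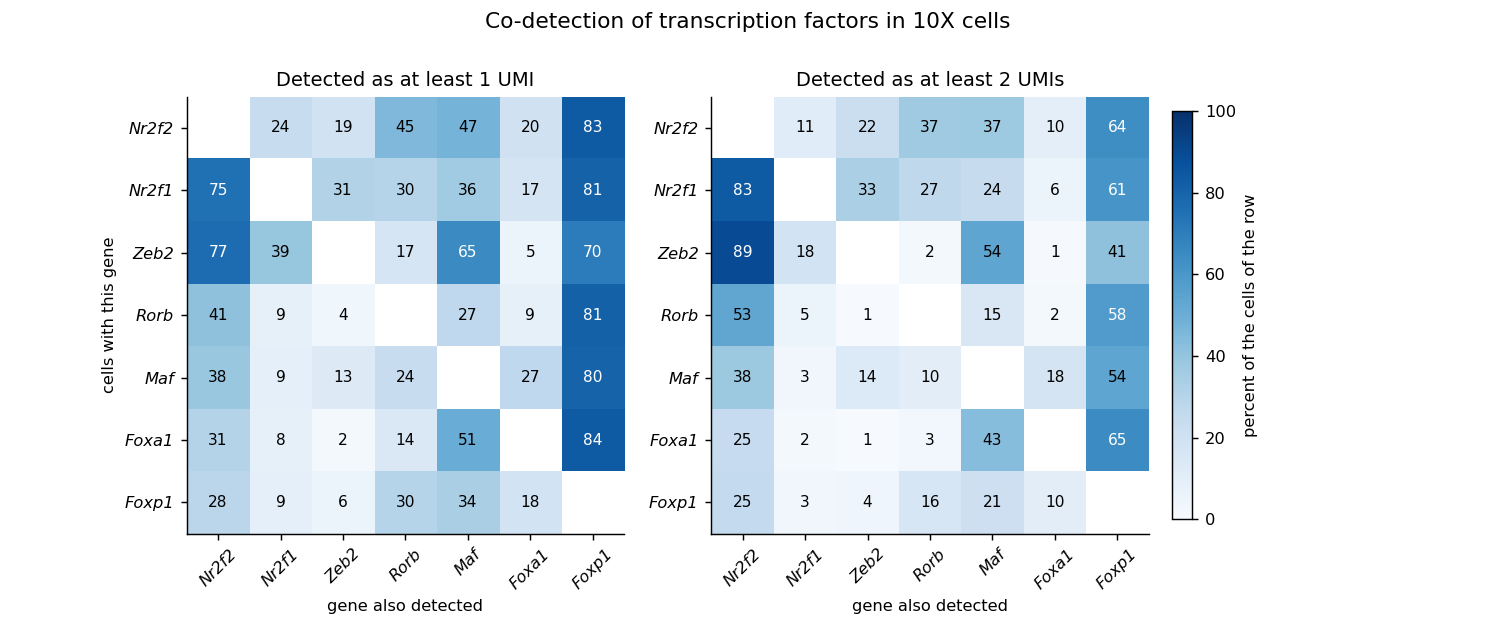
Co-detection of transcription factors in 10X cells, as the percent of cells with the row gene that also hold the column gene, with detection at 1 UMI (left) and 2 UMIs (right). The Zeb2 row has Nr2f2 at 76.8% and 89.1%, and Rorb at 16.8% and 1.68%.

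Some pairs were also seen within a cluster. The 7 genes had entered the clustering, and 72 of the 239 cells of cluster 10 kept their cluster when they were left out. In cluster 10, Nr2f2 was found in 101 of 140 cells with Rorb (72.1%) and in 23 of 99 without (23.2%), at median depths of 69550 and 71559 UMIs. In cluster 9 it was found in 37 of 52 cells with Rorb (71.2%) and 50 of 107 without (46.7%). In cluster 13, Nr2f1 was found in 16 of 27 Nr2f2 cells (59.3%) and 13 of 117 others (11.1%), again at like depths (27683 and 28815 UMIs). In cluster 3, Foxp1 was found in 89 of 100 Rorb cells and 165 of 220 others, and Nr2f1 in 3 of 21 Nr2f2 cells and 3 of 299 others. Of the 264 ordered pairs and clusters tabulated, intervals were apart in 8, which are these 5 and 3 of their reverses, and the 5 were chosen for that after their values were seen.

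The manual cells gave the same genes at greater depth per cell. Counting a gene at 5 CPM or more, P2ry1-cre cells held 3.5 of the 7 on average, Slc6a4-cre cDR cells 2.83, Npy2r-cre cDR and vmDR cells 2.0 each, and dlDR cells 0.6, with 5 of 10 dlDR cells holding none. Nr2f2, Zeb2 and Maf were held together by 9 of the 10 P2ry1-cre cells, 5 with no other of the 7, 3 with Foxp1, and 1 with Nr2f1 and Foxp1. In Slc6a4-cre cDR, 4 of 6 cells held Nr2f2 with Rorb, 3 of these also Nr2f1. In vmDR, 5 of 8 cells held Foxa1 with Foxp1, 2 of these also Maf. None of the 10 Zeb2 cells held Rorb or Foxa1. A rostral Npy2r-cre cell, replicate 3, held 5 of the 7 genes (Nr2f2, Rorb, Maf, Foxa1 and Foxp1) beside 86.7 CPM of Crh and 0 reads of Npy2r. Its astrocyte markers summed to 73.5 CPM, the highest of its group, where the median was 0, and their part in its values was not tested.

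Genes read beside the 7 were taken as lists of dorsal and rostral factors, transmitter genes and serotonergic identity genes. The cells with Nr2f2 in the 10X table held more Slc17a8, the vesicular glutamate transporter VGLUT3 (297.0 against 107.2 CPM, log2 ratio 1.47), and less of both GABA synthesis enzymes, Gad1 (-3.15) and Gad2 (-2.61). The dorsal and rostral factors were lower in Nr2f2 cells, with Sox14 at -2.96, Pax5 at -2.86, Klf5 at -1.68 and En2 at -1.42. In Rorb cells these 4 lay between -0.50 (En2) and 0.099 (Sox14). In Maf and Foxa1 cells Slc17a8 was higher (1.10 and 1.36) and Sox14 (-1.74 and -2.19) lower, but En2 was not lower (0.10 and 0.39). These are the same pooled cells, sorted by a gene measured in them, so they describe which transcripts share cells.

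Counts in the manual cells ran alike. At 5 CPM or more, Slc17a8 was held by 20 of 20 Nr2f2 cells and 22 of 50 others, while Pax5 was held by 0 of 20 and 19 of 50, Sox14 by 0 and 17, Gad1 by 0 and 14, and Gad2 by 1 and 31. Of 11 Foxa1 cells 10 held Slc17a8, 7 En2 and 0 Sox14, and of the 59 others 32, 25 and 17 did. In the caudal and ventral against dorsal comparison, 6 of 6 dorsal and rostral factors were at least 2-fold lower (median log2 ratio -1.97), 0 of 9 serotonergic identity genes moved that far, and Slc17a8 was higher (182.6 against 11.8 CPM), where 6.01% of the 10623 genes tested were lower and 10.7% higher, with a median of 0.057. Of the 19 paralogues 10 passed the filter, 2 were at least 2-fold higher, among them the MAF family gene Nrl (8.40 against 1.51 CPM), and 0 lower. Among caudal cells 9 of the 19 paralogues passed the filter. Zeb1 (14.7 against 50.7 CPM), Foxp4 and Mafk were at least 2-fold lower in P2ry1-cre neurons and 0 were higher. In that comparison 16.6% of 10705 genes were lower and 11.9% higher.

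Slc6a4, the serotonin transporter, was lower in Zeb2 cells. In 10X Zeb2 cells Slc6a4 was at 1096 against 2292 CPM (-1.06) and Tph2 at 1952 against 2891 CPM (-0.57), and Met at 102.1 against 0.23 CPM. In the manual cells Slc6a4 was at a mean of 945 CPM in P2ry1-cre cells and 3176 CPM in the other cDR cells (log2 ratio -1.75), and Tph2 at 6731 and 9894 CPM. Of 9 serotonergic identity genes, Slc6a4 was the 1 at least 2-fold lower there, and 0 were higher. In that comparison 16.6% of 10705 genes were lower and 11.9% higher, so nothing is read from this count. The P2ry1-cre cell with the most Zeb2 (192.0 CPM, replicate 10) had the least Slc6a4 of all 70 cells (64.8 CPM), with 31.5 CPM of Nr2f2 and 112.3 CPM of Maf. It also carried 85.8 CPM summed over the 6 oligodendrocyte markers, where the median of its group was 0; those reads fell on 1 of the 6, while Mbp, Mog, Mag, Olig1 and Olig2 were at 0 in all 10 P2ry1-cre cells. The Zeb2 log2 ratio among caudal cells was 5.96 without this cell, and the part of those markers in its Slc6a4 value was not tested.

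The genes whose log-normalised counts ran most like each of the 7 over the 2350 cells, among 12519 genes, are given by Pearson's r as a description, since cells share library, depth and cluster. Zeb2 ran most with Met (0.89), S1pr3 (0.78) and Utrn (0.74), and Maf with Nos1 (0.65) and Cacng5 (0.63). Nr2f2 ran most with Lpar1 (0.60), Mgll (0.51) and Elmo1 (0.51), and Nr2f1 most with Nr2f2 itself (0.39), Lmo1 (0.34) and Grm5 (0.33). Rorb ran with Wnt4 (0.43), Cmbl (0.39) and Nr2f2 (0.37), Foxa1 with Tpbg (0.45), Fam210b (0.44) and Rspo3 (0.41), and Foxp1 with Calb2 (0.45), Tmeff2 (0.45) and Cadm1 (0.34). In counts this sparse a weak correlation is not read as a finding. For Zeb2 with Met the value was 0.89 and 0.90 in barcode sets 1 and 2.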

How the data were processed

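Manually sorted neurons were sequenced with SMART-Seq v4 libraries (unstranded) and droplet neurons with the 10X Chromium Single Cell 3′ v3 kit. The deposited values are counts: the authors gave reads per gene for 70 manual cells, and UMI counts per gene for 2350 droplet cells that they had already filtered. The submitters' processing notes name Cell Ranger 3.0.2, STAR 2.5.4, R 3.5.3 and mm10. Every count column was assigned to a labelled group, columns named Crf (an alias of Crh) to the Crh-cre cells.

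The members and all lists were chosen with earlier results of these data known. Named genes were the 7 members, their family and companion lists, the driver genes, and for each member the 3 genes with the highest Pearson r over 10X cells (log-normalised, genes with a UMI in at least 5% of cells). Counts were divided by each cell's total and scaled to 1000000 (CPM), and log2 ratios used mean CPM + 1. A gene was called in a comparison of manual groups at a log2 ratio of 1 or -1 where an arm had a mean of at least 5 CPM, and in a cluster at a log2 ratio of 2 with at least 100 UMIs. 10X cells were clustered with Seurat 5.3.0 (2000 variable genes, scale 10000, components 1 to 50 without 6 and 7, 20 neighbours, resolution 0.9). Components 6 and 7 followed the barcode set (47.8% and 19.9% of their variance). Scrublet in scanpy 1.11.5 marked 10 of 2350 cells as doublets, and they were kept. Shares have exact Clopper-Pearson intervals, and sums and ratios of counts have exact Poisson and conditional binomial ones, at 95%. Cells were thinned to 20000 UMIs or 700000 reads. TMM (edgeR 4.0.16) and median-of-ratios scaling were tried for the manual cells. The scripts were tested on simulated data. R 4.3.3, Python 3.11.15, numpy 2.4.6, scipy 1.17.1, pandas 2.3.3 and matplotlib 3.10.9 were used. Some genes of the lists and some correlated genes are not reported here.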

Additional observations from a re-analysis of the deposited data

Results flagged for a closer look

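In 45 groups of manual cells (6 to 10 cells, genes with reads), the highest or lowest cell lay further from the rest than Dixon's 95% critical value in 15. Chance alone flags about 1 group in 20, and for genes at 0 in most cells any cell with reads is set apart.

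For Nr2f2 these cells were P2ry1-cre cDR replicate 10, the lowest of its group at 31.5 CPM (next 76.4, median 92.0), vmDR replicate 7 at 4.14 CPM, Npy2r-cre rDR replicate 3 at 160.5 CPM and Crh-cre rDR replicate 7 at 173.4 CPM. For Nr2f1 they were P2ry1-cre cDR replicate 3 at 52.6 CPM and dlDR replicate 3 at 0.32 CPM. For Zeb2 they were Npy2r-cre cDR replicate 9 at 0.73 CPM and Npy2r-cre rDR replicate 8 at 0.13 CPM. For Rorb they were Npy2r-cre rDR replicate 3 at 12.1 CPM, dmDR replicate 3 at 14.7 CPM and dlDR replicate 5 at 12.2 CPM. For Maf it was Slc6a4-cre cDR replicate 3 at 0.88 CPM. For Foxa1 they were Npy2r-cre cDR replicate 4 at 9.14 CPM, dmDR replicate 6 at 26.6 CPM and dlDR replicate 10 at 2.15 CPM.

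Npy2r-cre rDR replicate 3 stood apart for both Nr2f2 and Rorb, with Maf at 27.0, Foxa1 at 16.2, Foxp1 at 76.4 and the VGLUT3 gene Slc17a8 at 400.8 CPM, and its astrocyte markers summed to 73.5 CPM. Crh-cre rDR replicate 7 held Maf at 234.3, Foxa1 at 68.1 and Slc17a8 at 384.1 CPM, with Crh at 0. The dmDR replicate 6 cell held Maf at 57.7 CPM and the GABA synthesis gene Gad1 at 544.5 CPM.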

How the results depend on the processing

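Of 1056 alternative values for 55 results, 921 stayed within the limits set for each result, 133 moved and 2 that were past 2-fold turned direction. In all 13 log2 ratios changed sign, 11 of them under 2-fold at the reported setting (Zeb2 and Maf in the first comparison, Nr2f2 and Rorb in the Npy2r-cre comparison). All 27 values under TMM and all 27 under median-of-ratios scaling stayed within those limits, and these scalings moved the median of all genes by at most 0.062 on the log2 scale. No paired analysis was possible because replicate numbers were given in accession order and mark no shared animal. Thinning lowered the detection shares of all 7 genes, and the causes of the moves below were not tested.
With 2 UMIs required, shares of cells were 20.4% Nr2f2, 2.81% Nr2f1, 5.06% Zeb2, 14.0% Rorb, 20.1% Maf, 8.30% Foxa1, 51.2% Foxp1, 32.8% for 2 or more genes and 19.7% without Foxp1. Nr2f2 was then in 89.1% and Maf in 53.8% of Zeb2 cells, Nr2f2 in 83.3% of Nr2f1 cells, and Rorb in 1.68% and Foxa1 in 0.84% of Zeb2 cells. With 3 UMIs the shares were, in the same order, 15.9%, 0.81%, 4.81%, 9.28%, 15.1%, 3.70%, 31.8%, 21.1% and 14.0%. Thinned to 20000 UMIs they were 18.7%, 4.14%, 5.31%, 16.0%, 21.1%, 9.01%, 47.1%, 32.8% and 19.9%, with Maf in 50.0%, Rorb in 7.38% and Foxa1 in 0.82% of Zeb2 cells and Nr2f2 in 68.4% of Nr2f1 cells.
In barcode set 1 the log2 ratios of the highest cluster were 8.95 Zeb2, 4.58 Rorb, 4.15 Maf and 1.86 Foxp1, and shares were 24.1% Nr2f2, 19.8% Rorb, 29.6% Maf, 13.7% Foxa1, 72.7% Foxp1, 50.2% for 2 or more genes and 27.7% without Foxp1, with Nr2f2 in 83.9%, Maf in 75.0% and Rorb in 7.14% of Zeb2 cells. In set 2 the ratios were 3.94 Rorb and 3.67 Maf, and shares 34.3% Rorb, 19.1% Foxa1, 80.5% Foxp1, 65.2% for 2 or more genes and 37.6% without Foxp1. With components 6 and 7 kept, Zeb2 was at 5.97 and Rorb at 3.73. With the 7 genes left out of clustering Rorb was at 3.75 and Maf at 3.69, at resolution 0.7 at 3.50 and 3.69, and by the mean over cells Maf was at 3.92.
Manual cells with a gene numbered 10 for Zeb2, 8 for Rorb and 11 for Foxa1 at 5 CPM or more, and 13 for Zeb2 and 26 for Rorb thinned to 700000 reads. In the caudal and ventral against dorsal comparison, P63 cells gave Foxa1 -1.21, with 3 genes higher and 1 lower. P90 cells gave Nr2f2 1.03, Nr2f1 0, Rorb -1.14, Maf 3.27 and Foxa1 5.09, with 3 higher. Means of log2 values gave Nr2f2 2.14 and Nr2f1 1.21. Medians gave Nr2f2 0.16, Nr2f1 0, Rorb 1.08 and Foxa1 0.26, with 2 higher. A pseudocount of 0.1 gave Nr2f2 8.13 and Nr2f1 6.00, and one of 10 gave 1.92 and 0.80, with 2 higher. In the Npy2r-cre comparison, a filter of 1 CPM or none gave 2 higher and 1 lower, P77 cells and means of log2 values 2 higher, and P87 cells 2 higher with Nr2f2 at 3.62. Nr2f1 there was 1.12 by means of log2 values, 0 by medians (with Foxa1 0 and 3 higher), 5.58 at a pseudocount of 0.1 (with Zeb2 0.86) and 0.55 at 10. Among caudal cells, P63 cells (1 of them P2ry1-cre) gave Foxa1 0 and Foxp1 -4.20, with 1 higher, and medians gave Rorb -1.43, Maf 4.88 and Foxa1 0. A pseudocount of 0.1 gave Zeb2 8.87, Rorb -6.13 and Foxa1 -2.81, and one of 10 gave Zeb2 3.13 and Rorb -1.45, with 1 lower. Leaving out each cell in turn moved the number lower in the first comparison between 0 and 1 (1 without vmDR replicate 4 or 6), the Npy2r-cre Nr2f2 ratio between -0.071 and 4.02, its numbers higher between 1 and 3 and lower between 0 and 1, and the number lower in P2ry1-cre cells between 1 and 3.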

Other observations

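The antisense gene of Zeb2 was detected beside it. Zeb2os had 98 UMIs in cluster 12 (19.7 CPM) and 1 UMI each in clusters 2, 3, 6 and 7. The gene antisense to Nr2f1, A830082K12Rik, was at 3.85 CPM in cluster 13, 2.82 in cluster 12, 2.80 in cluster 14 and 2.20 in cluster 8.

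A single 10X cell of cluster 7 held 240 of the cluster's 243 microglial-marker UMIs, with 186 UMIs of Tph2, 59311 UMIs in all and 1 UMI of Zeb2, and it was not marked as a doublet. Zeb2 cells summed to 32.6 CPM of microglial markers with this cell and 0.14 CPM without it.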
